A study of Homo sapiens with 6 samples.

Results

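A set of 40 cell cycle and DNA replication genes was examined in MDA-MB-231, a triple-negative breast cancer cell line of mesenchymal type. The genes were taken by name from a fixed list, and 40 of 40 were found among the 22465 genes measured. They were divided into 18 genes here called S phase genes, most of which license, start or supply DNA replication, and 22 here called mitotic genes, most of which drive mitosis or build the spindle. The S phase set also holds regulators such as MYBL2, which acts in the later wave described below, and EZH2, a histone methyltransferase. One group of 3 arrays came from cells that stably overexpressed wild-type DAXX (DAXX OE). The other 3 arrays came from cells that stably overexpressed DSM, a DAXX mutant with both SUMO-interacting motifs disabled (DSM OE). DAXX deposits histone H3.3 and helps to regulate transcription, and these motifs let it bind proteins that carry SUMO. Both populations carried a lentiviral cDNA driven by a viral promoter and were selected with puromycin at 2 µg/mL. Each construct was represented by 1 stable population, so the spread between arrays is that of cultures and not of separate transductions. Cells grew for 24 h in complete medium, and 200 ng of total RNA was used per array. Cells with a control vector were not analysed here. The comparison therefore asks whether the SUMO-interacting motifs of DAXX alter the expression of cell cycle genes, and it gives no change against unmodified cells.

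Genes of the division cycle are transcribed in waves. In G1 the retinoblastoma family holds E2F factors in check, and their release switches on cyclin E, the MCM helicase, its loaders and the enzymes of nucleotide supply. A later wave in G2 and M is switched on through the MuvB complex with B-MYB and FOXM1, which acts on promoters with a CHR element, often next to CCAAT boxes bound by NF-Y. In quiescent cells MuvB instead joins p130 and E2F4 in the repressive DREAM complex. MKI67, PCNA and other genes of both waves are used as markers of proliferating cells. In bulk RNA, fewer cells in a phase and less RNA per cell cannot be told apart.

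The promoters of both sets were read first, because these elements are what set the waves apart. RefSeq promoters (GRCh38.p14, 250 bases before to 50 after the start) were matched for 33 of the 40 genes, 15 S phase and 18 mitotic. The letters searched on both strands were CCAAT, the CHR letters TTTGAA or TTTAAA, and the E2F letters TTTCCCGC, TTTGGCGC, TTTCGCGC or TTTGCCGC. E2F letters stood in 11 of 15 S phase promoters (73.3%) and 2 of 18 mitotic promoters (11.1%), against 4.2% of 15247 promoters of genes on the arrays. CHR letters stood in 2 S phase promoters (13.3%) and 13 mitotic promoters (72.2%), against 19.8% on the arrays. CCAAT stood in 66.7% and 88.9% of them, against 36.3%. Both CCAAT and CHR letters were found in 1 S phase promoter and in 12 mitotic promoters (66.7%), against 8.0% on the arrays. A match is a description of the letters and not of a bound site. The 4 promoters below, 2 from each set, are among those with the most matches of the genes described in full, written 5′ to 3′ on the gene's strand with matched letters in capitals. MCM3 tied with E2F1, and PLK1 with MKI67 and CDK1, and the gene with the larger difference in signal is shown. ATTGG and TTCAAA are CCAAT and TTTGAA read on the other strand.
MCM6 (chr2:135876394-135876693, minus strand): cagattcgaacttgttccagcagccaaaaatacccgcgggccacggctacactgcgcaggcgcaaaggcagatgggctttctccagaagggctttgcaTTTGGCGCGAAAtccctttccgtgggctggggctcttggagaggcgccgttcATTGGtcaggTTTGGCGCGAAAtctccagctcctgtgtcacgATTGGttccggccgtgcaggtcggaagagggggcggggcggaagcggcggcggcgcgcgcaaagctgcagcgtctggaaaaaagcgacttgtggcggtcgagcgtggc
MCM3 (chr6:52284693-52284992, minus strand): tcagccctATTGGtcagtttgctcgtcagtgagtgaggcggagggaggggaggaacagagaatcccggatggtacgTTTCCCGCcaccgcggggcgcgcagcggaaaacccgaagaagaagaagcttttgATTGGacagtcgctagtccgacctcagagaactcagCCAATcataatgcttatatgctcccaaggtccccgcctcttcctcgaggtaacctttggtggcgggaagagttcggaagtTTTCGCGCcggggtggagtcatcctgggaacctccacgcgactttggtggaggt
TOP2A (chr17:40417847-40418146, minus strand): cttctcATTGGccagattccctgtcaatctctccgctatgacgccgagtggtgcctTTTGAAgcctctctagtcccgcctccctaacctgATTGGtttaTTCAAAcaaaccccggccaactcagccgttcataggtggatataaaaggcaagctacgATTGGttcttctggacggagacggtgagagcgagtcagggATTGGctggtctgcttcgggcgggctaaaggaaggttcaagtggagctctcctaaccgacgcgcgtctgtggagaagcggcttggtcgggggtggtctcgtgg
PLK1 (chr16:23678639-23678938, plus strand): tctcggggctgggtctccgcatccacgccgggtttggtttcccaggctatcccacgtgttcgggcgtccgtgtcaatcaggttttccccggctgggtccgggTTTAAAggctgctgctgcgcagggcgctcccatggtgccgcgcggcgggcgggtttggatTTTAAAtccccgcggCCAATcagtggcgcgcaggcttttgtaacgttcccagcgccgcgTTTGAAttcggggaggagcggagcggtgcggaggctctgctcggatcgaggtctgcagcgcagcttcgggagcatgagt
In MCM6 each run TTTGGCGCGAAA holds 2 overlapping matches, TTTGGCGC and, read on the other strand, TTTCGCGC. The MCM6 promoter thus had 4 E2F matches and 2 CCAAT boxes, and that of MCM3 had 2 and 3. Those of TOP2A and PLK1 had no E2F match, with 2 and 3 CHR matches and with 4 and 1 CCAAT boxes.

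The arrays themselves bear on every value below. DAXX OE replicate 1 stood apart, with correlations of 0.973 to 0.980 over genes with the other 5 arrays, which correlated at 0.996 to 0.998 among themselves. Its values were compressed (SD over genes 1.63, against 1.82 to 1.85), so that dim genes read high and bright genes read low on it. In the brightest of 10 level bins, with 2246 genes, its median deviation from the gene mean was -0.23 (log2). All 40 members had a mean signal above the median of 6.73 over genes, 26 of them above the 90th percentile of 9.02, and this array was the lowest of the 3 DAXX OE arrays for 40 of 40 members and the lowest of 6 for 38. Differences are therefore given with 6 arrays, without DAXX OE replicate 1 and with 6 arrays after cyclic loess normalization, which evens out such level-dependent shifts; where a pair of values follows a difference with no label, it gives the fit without DAXX OE replicate 1 and that after cyclic loess, in that order. The label of the cell line was checked against 8 mesenchymal and 8 luminal markers. The 8 mesenchymal markers read 8.22 (SNAI2) to 11.9 (VIM) on every array, while 7 of 8 luminal markers, ESR1, PGR and CDH1 among them, read 3.53 (PGR) to 6.97 (GATA3). KRT19, the remaining luminal marker, read 9.03 to 9.63. DAXX itself read 8.68, 8.95 and 8.94 in DAXX OE and 9.31, 9.36 and 9.36 in DSM OE. The DSM OE arrays were all higher, by 0.49 (limma adjusted p = 0.416), or 0.40 (limma adjusted p = 0.0144) without DAXX OE replicate 1 and 0.37 after cyclic loess, and by 0.29 over the mean of the gene's clusters. Its adjusted p reached 0.911 in another setting with equal array weights. The signal sums transgene and endogenous transcript in shares the array does not separate. DAXX signal and the state of its motifs go with the same groups and cannot be told apart.

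No member passed the threshold between DSM OE and DAXX OE. Each difference is the DSM OE mean less the DAXX OE mean in log2 RMA signal, tested with limma over 22465 genes and adjusted by Benjamini-Hochberg at 0.05. With 6 arrays 0 of 40 members passed, and the lowest adjusted p among them was 0.682, where 0.0623% of all genes passed. At an unadjusted p under 0.05, 2 mitotic genes were higher and 0 members were lower, against 3.77% of genes higher and 1.38% lower. Leaving out DAXX OE replicate 1, 0 of 40 passed and the lowest adjusted p was 0.112, where 1.25% of genes passed. There, 5 members were higher and 8 were lower at an unadjusted p under 0.05, against 8.86% and 6.19% of genes. After cyclic loess 0 of 40 passed (lowest adjusted p 0.204, where 0.111% of genes passed), with 5 members higher and 10 lower at an unadjusted p under 0.05, against 6.32% and 4.18%. The 95% interval of the difference lay within 2-fold in either direction for 40 of 40 members with 6 arrays, and within 1.3-fold for 27. It lay within 1.3-fold for 40 of 40 without DAXX OE replicate 1, and after cyclic loess for 39.

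**Figure D1:**
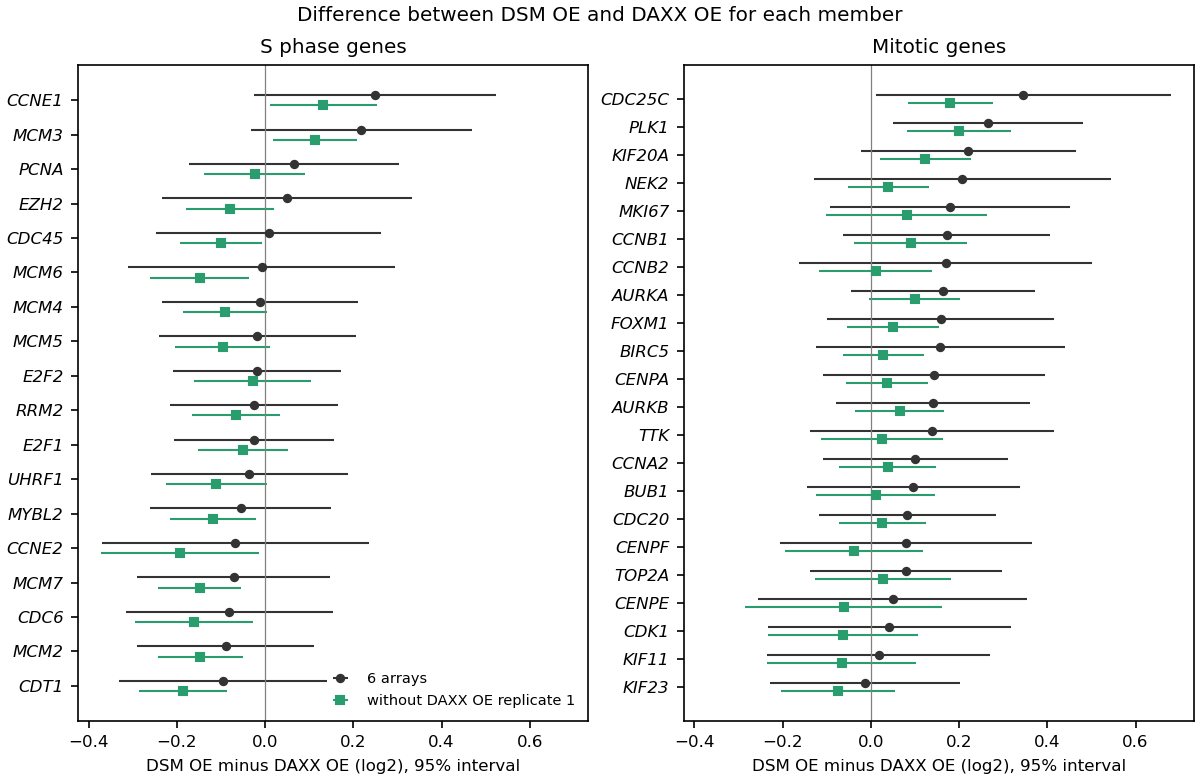
Difference in log2 signal (x axis) between DSM OE and DAXX OE for each S phase gene (left) and mitotic gene (right), with 95% intervals from limma; black circles use 6 arrays and green squares leave out DAXX OE replicate 1. With 6 arrays 38 of 40 intervals include 0, and without that array all 40 intervals lie within 1.3-fold.

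The medians of the S phase and mitotic genes differed, while their ranges overlapped, from -0.10 to 0.25 and from -0.01 to 0.35 with 6 arrays. With 6 arrays the median difference was -0.02 over the 18 S phase genes, 5 of them positive, and 0.14 over the 22 mitotic genes, 21 of them positive, beside 0.01 over all genes and 0.08 over the level bins the members fell in. Without DAXX OE replicate 1 the medians were -0.10 (2 of 18 positive) and 0.03 (17 of 22 positive). After cyclic loess they were -0.13 (2 of 18 positive) and 0.04 (17 of 22 positive), and in both settings the medians of all genes and of those bins lay within 0.02 of 0. The S phase median was thus 0.16, 0.13 and 0.17 below the mitotic median in the 3 settings. These medians describe genes that share the same arrays and carry no test.

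The gap between the sets was also read on single arrays. The median S phase deviation from the gene mean minus the median mitotic deviation was 0.12, 0.011 and 0.098 in DAXX OE replicates 1 to 3. In DSM OE it was -0.08, -0.05 and -0.10. The 3 DAXX OE arrays were all above 0 and the 3 DSM OE arrays were all below 0, although DAXX OE replicate 2 lay close to it. Deviations are taken from the mean over both groups, so opposite signs of the groups follow from the difference in medians, and the values show only how the arrays of a group vary around it. After cyclic loess the values were 0.13, 0.0028 and 0.0945 in DAXX OE and -0.08, -0.06 and -0.11 in DSM OE, again without overlap. DAXX OE replicate 1 read S phase genes at a median of -0.14 and mitotic genes at -0.26, on either side of the -0.23 of the brightest level bin.

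**Figure D2:**
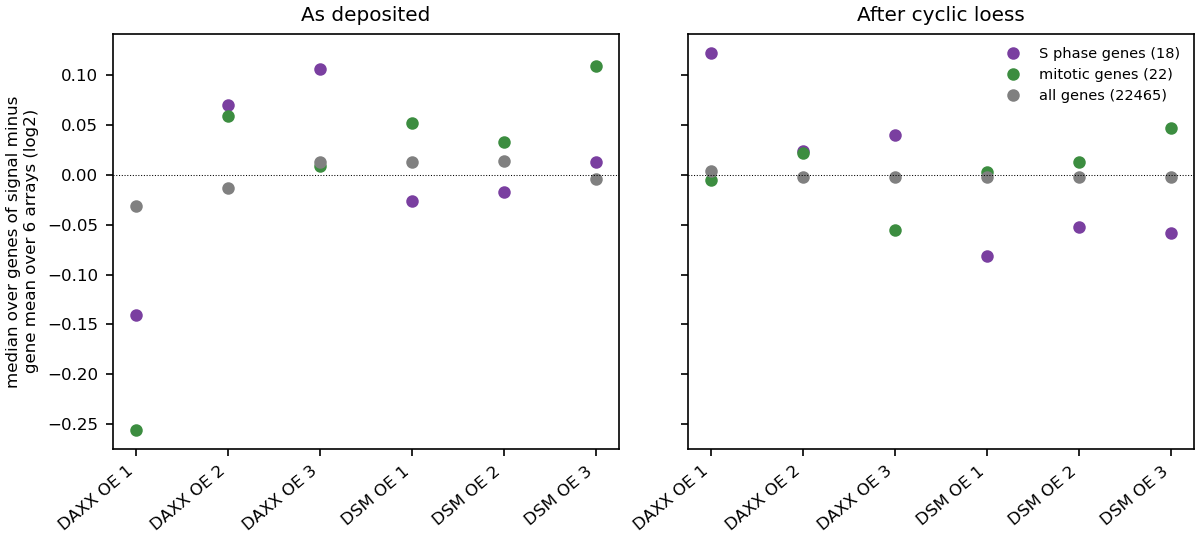
Median over genes of the signal minus the gene's mean over 6 arrays (y axis, log2) for each array (x axis), over 18 S phase genes (purple), 22 mitotic genes (green) and 22465 genes (grey), as deposited (left) and after cyclic loess (right). S phase points lie above mitotic points in the 3 DAXX OE arrays and below them in the 3 DSM OE arrays, by 0.0028 to 0.13.

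CDT1 had the lowest difference of the S phase genes with 6 arrays and after cyclic loess, and CCNE2 without DAXX OE replicate 1. CDT1, which with CDC6 loads the MCM helicase onto origins, read 8.35, 8.59 and 8.66 in DAXX OE and 8.44, 8.44 and 8.44 in DSM OE, a difference of -0.10 (SE 0.10, limma adjusted p = 0.692). DAXX OE replicate 1 lay below the DSM OE arrays and the other two DAXX OE arrays above them. Without that array CDT1 differed by -0.19 (SE 0.04, limma adjusted p = 0.113), and its adjusted p ran up to 0.911 over the other settings with equal array weights. After cyclic loess the DAXX OE arrays read 8.67, 8.56 and 8.59 against 8.37, 8.40 and 8.37, a difference of -0.23 (limma adjusted p = 0.204). CDC6 differed by -0.08 with 6 arrays, or -0.16 and -0.18.

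The 6 MCM genes, whose products form the replicative helicase ring, did not all lie on the same side of 0. MCM2 read 8.45, 8.60 and 8.65 in DAXX OE and 8.49, 8.48 and 8.46 in DSM OE, a difference of -0.09 (SE 0.09), or -0.15 without DAXX OE replicate 1 and -0.22 after cyclic loess. MCM6 had signals of 8.79, 9.22 and 9.20 against 9.05, 9.02 and 9.12, a difference of -0.008 (SE 0.13) that became -0.15 and -0.13. In both genes DAXX OE replicate 1 was the lowest of 6 arrays and the other DAXX OE arrays were the highest. MCM4, MCM5 and MCM7 lay between -0.07 and -0.01 with 6 arrays between -0.15 and -0.09 without DAXX OE replicate 1 and between -0.17 and -0.11 after cyclic loess. MCM3, in the same ring, lay above 0. Its DAXX OE arrays read 9.48, 9.78 and 9.81 and its DSM OE arrays 9.90, 9.90 and 9.93, a difference of 0.22 (1.16-fold, SE 0.11, limma adjusted p = 0.682). Its groups were apart with 6 arrays, and so by construction without DAXX OE replicate 1, and also after cyclic loess. The other settings gave differences of 0.11 and 0.12. CDC45, which joins MCM to form the active helicase, read 8.22, 8.52 and 8.56 against 8.43, 8.44 and 8.44, a difference of 0.008 (SE 0.11), or -0.10 and -0.12.

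Cyclin E1 and cyclin E2, the partners of CDK2 at the start of S phase, lay on opposite sides of 0. CCNE1 read 7.56, 7.84 and 7.97 in DAXX OE and 8.05, 8.05 and 8.02 in DSM OE, a difference of 0.25 (1.19-fold, SE 0.12, limma adjusted p = 0.682). All DSM OE arrays were above all DAXX OE arrays, and the difference was 0.13 without DAXX OE replicate 1 and 0.12 after cyclic loess. CCNE2 read 7.71, 8.15 and 8.03 against 7.87, 7.80 and 8.02, a difference of -0.07 (SE 0.13), or -0.19 in each of the other settings. With 6 arrays the CCNE2 groups overlapped. A test of the difference between the 2 cyclins was not made.

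PCNA, the sliding clamp of DNA polymerases, read 9.01, 9.27 and 9.29 in DAXX OE and 9.25, 9.20 and 9.32 in DSM OE, a difference of 0.07 (SE 0.10) that was -0.02 without DAXX OE replicate 1 and -0.05 after cyclic loess. Its groups overlapped in the 3 settings. E2F1, the activator of this wave, read 8.64, 8.69 and 8.73 against 8.69, 8.62 and 8.67, a difference of -0.03 (SE 0.08), or -0.05 and -0.15. E2F2, RRM2 (a ribonucleotide reductase subunit), UHRF1 (which brings DNMT1 to replicated DNA), MYBL2 (which encodes B-MYB) and EZH2 (the Polycomb methyltransferase) differed by -0.06 to 0.05 with 6 arrays. For those 5 genes the range was -0.12 to -0.03 without DAXX OE replicate 1 and -0.16 to -0.05 after cyclic loess, where MYBL2 was at -0.16 and UHRF1 at -0.15. Over the whole set, 2 of 18 S phase genes had DSM OE above DAXX OE without overlap in each setting, MCM3 and CCNE1, against 13.7% of all genes with 6 arrays, 18.1% without DAXX OE replicate 1 and 13.0% after cyclic loess. The counts with and without DAXX OE replicate 1 are equal by construction, because it was the lowest DAXX OE array for every member. Among genes above the median level, where all members lie, 21.7% were higher and 2.23% lower without overlap with 6 arrays. The number with DSM OE below DAXX OE without overlap was 0 with 6 arrays, where 5.5% of genes did so. It was 14 of 18 without DAXX OE replicate 1, against 13.5% of genes, and 14 of 18 after cyclic loess, against 10.1%. E2F2 and PCNA were the 2 genes that overlapped in both of those settings.

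**Figure D3:**
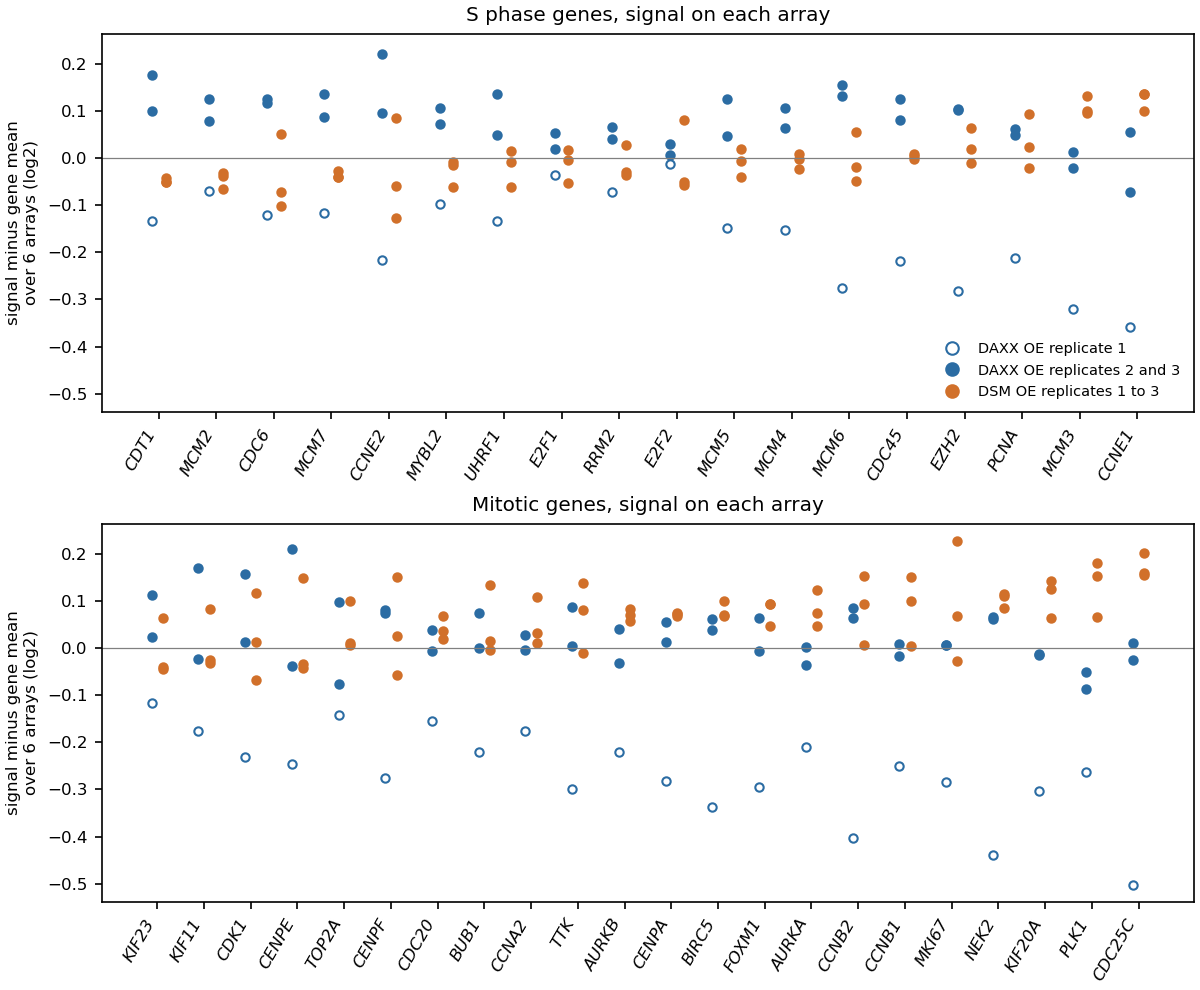
Signal on each array minus the gene's mean over 6 arrays (y axis, log2) for the 18 S phase genes (top) and 22 mitotic genes (bottom), ordered by their difference; open blue circles are DAXX OE replicate 1, filled blue circles DAXX OE replicates 2 and 3, orange circles DSM OE. The open circle is the lowest of 6 points for 38 of 40 genes, and among S phase genes the filled blue points lie above the orange ones for 14 of 18.

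The largest differences among mitotic genes with 6 arrays were those of CDC25C, PLK1, KIF20A and NEK2. CDC25C, the phosphatase that activates CDK1, read 7.39, 7.86 and 7.90 in DAXX OE and 8.05, 8.05 and 8.09 in DSM OE, a difference of 0.35 (1.27-fold, SE 0.14, limma unadjusted p = 0.0444 and adjusted p = 0.682). The groups did not overlap. Without DAXX OE replicate 1 the difference was 0.18 (1.13-fold, SE 0.04, limma adjusted p = 0.112), after cyclic loess it was 0.22, and over the settings with equal array weights the adjusted p ran up to 0.911. PLK1, the polo-like kinase that promotes mitotic entry and spindle assembly, read 10.30, 10.48 and 10.52 against 10.75, 10.63 and 10.72, a difference of 0.27 (1.20-fold, SE 0.09, limma unadjusted p = 0.0218 and adjusted p = 0.682). Of these 4 genes PLK1 moved least between the settings, at 0.20 both without DAXX OE replicate 1 (SE 0.05, limma adjusted p = 0.131) and after cyclic loess (limma adjusted p = 0.256), with no overlap. KIF20A, a kinesin of the central spindle, read 9.89, 10.18 and 10.18 against 10.32, 10.25 and 10.33, a difference of 0.22 (SE 0.10), or 0.12 and 0.14. CDC25C, PLK1 and KIF20A were the 3 mitotic genes without overlap both with 6 arrays and after cyclic loess. Groups apart with 6 arrays stay apart by construction when an array is left out, so that setting adds nothing here. The share of all genes apart in both was not counted. NEK2, a centrosomal kinase, read 7.53, 8.04 and 8.03 against 8.09, 8.06 and 8.08, and its difference of 0.21 (SE 0.14) was 0.04 once DAXX OE replicate 1, the only array far from the rest, was left out and 0.08 after cyclic loess.

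The cyclin B and CDK1 pair and the common proliferation markers overlapped between the groups with 6 arrays. CCNB1 read 9.94, 10.19 and 10.17 in DAXX OE and 10.29, 10.19 and 10.34 in DSM OE, a difference of 0.17 (SE 0.10), or 0.09 in each of the other settings. CDK1 read 8.64, 9.03 and 8.89 against 8.89, 8.81 and 8.99, a difference of 0.04 (SE 0.12) that was -0.06 without DAXX OE replicate 1 and -0.08 after cyclic loess. The signs for the cyclin and its kinase thus differed in those settings, and a test of the difference between these genes was not made. MKI67, which encodes the Ki-67 antigen of cycling cells, read 10.56, 10.85 and 10.85 against 10.81, 11.07 and 10.91, a difference of 0.18 (SE 0.12), or 0.08 and 0.13. TOP2A, the topoisomerase that untangles sister chromatids, read 10.70, 10.94 and 10.77 against 10.85, 10.85 and 10.94, a difference of 0.08 (SE 0.09), or 0.03 in each of the other settings. For MKI67 the 95% interval was -0.09 to 0.45 with 6 arrays and -0.10 to 0.26 without DAXX OE replicate 1, so a 1.3-fold difference lay inside the first interval and outside the second.

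FOXM1, the forkhead factor of the mitotic wave, read 9.74, 10.03 and 10.10 in DAXX OE and 10.08, 10.13 and 10.13 in DSM OE, a difference of 0.16 (SE 0.11), or 0.05 and 0.07. The spindle motors KIF11 and KIF23 stood at the other end of the set. KIF11 read 9.84, 10.19 and 10.00 against 10.00, 9.99 and 10.10, a difference of 0.02 (SE 0.11). KIF23 read 10.42, 10.65 and 10.56 against 10.49, 10.50 and 10.60, and at -0.01 (SE 0.09) it was the only mitotic gene below 0 with 6 arrays. Without DAXX OE replicate 1 both were at -0.07, after cyclic loess they were at -0.07 and -0.08, and in both settings CDK1 and the kinetochore genes CENPE and CENPF, which were at 0.05 and 0.08 with 6 arrays, were also below 0. The remaining members were the kinases AURKA, AURKB, BUB1 and TTK, the cyclins CCNA2 and CCNB2, the anaphase activator CDC20, and BIRC5 and CENPA of the centromere. They differed by 0.08 to 0.17 with 6 arrays by 0.01 to 0.10 without DAXX OE replicate 1 and by 0.01 to 0.07 after cyclic loess. In the mitotic set 8 of 22 genes had DSM OE above DAXX OE without overlap with 6 arrays and 8 without DAXX OE replicate 1, beside the background shares of 13.7% and 18.1%. Those counts are equal by construction, because that array was the lowest DAXX OE array for every member. The number was 5 after cyclic loess, beside 13.0%, and 0 genes had DSM OE below DAXX OE without overlap in any of the 3 settings. All members lay above the median level. Of the 11232 genes there, 21.7% had DSM OE above DAXX OE without overlap with 6 arrays, and 2.23% below. DSM OE replicate 3 was the highest DSM OE array for 17 of 22 mitotic genes and for 11 of 18 S phase genes.

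The signal level of the members went with part of these values. Over all genes, the median difference with 6 arrays ran from -0.11 in the second of the 10 level bins to 0.13 in the ninth, and it was 0.08 in the brightest, which held 10 S phase and 16 mitotic members. After cyclic loess the bin medians lay between -0.03 and 0.01. Read against their bins, S phase genes lay below and mitotic genes above genes of like level in the 3 settings, by their medians. Whether the shape of DAXX OE replicate 1 contributes to the size of single differences was examined only by other fits. These left it out or used cyclic loess, as given above, or used quantile normalization or array weights, as given below.

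**Figure D4:**
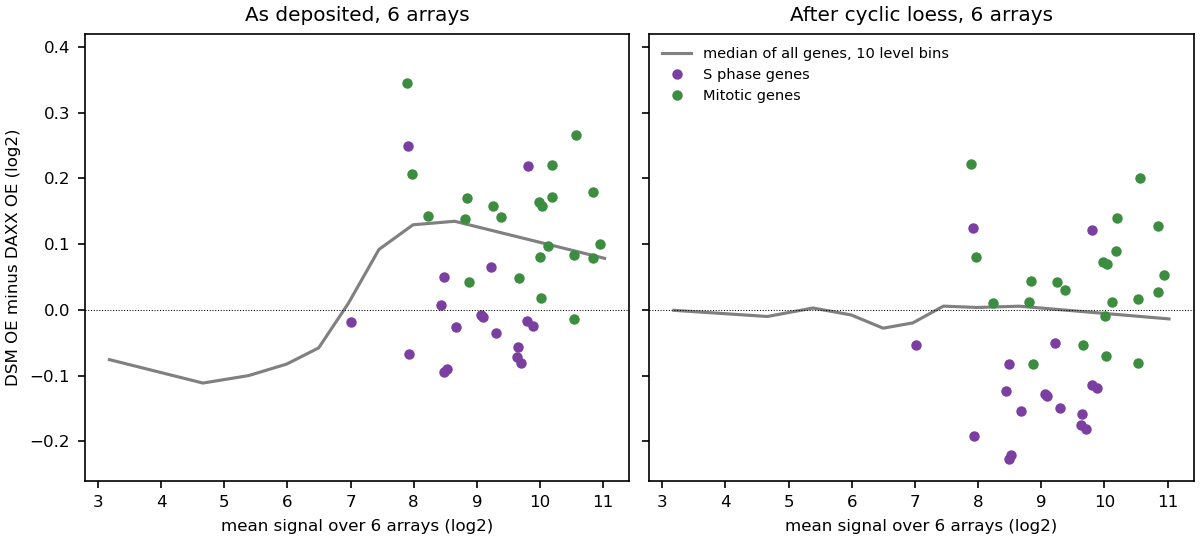
Difference in log2 signal (y axis) against mean log2 signal over 6 arrays (x axis) for S phase genes (purple) and mitotic genes (green), with the median of all genes in 10 level bins as a grey line, as deposited (left) and after cyclic loess (right). The grey line reaches 0.13 at the levels of many members as deposited and stays between -0.03 and 0.01 after cyclic loess, where 16 of 18 S phase genes lie below 0 and 17 of 22 mitotic genes above it.

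Other genes of the same pathways were read from wider lists. Among 44 other replication genes (origin recognition, GINS, polymerases, clamp loaders, nucleotide supply) 0 passed the threshold with 6 arrays, with a median of 0.03 and 29 positive. The median was -0.07 with 5 positive without DAXX OE replicate 1, and after cyclic loess it was -0.07 with 9 positive. The groups were apart with DSM OE lower for 1, 22 and 16 of these genes in the 3 settings, beside the background shares of 5.5%, 13.5% and 10.1%. The 6-array share was 2.23% over genes above the median level, where 43 of these 44 lie. With 6 arrays the 1 gene was POLD2, a subunit of DNA polymerase delta, named after its values were seen, at -0.19, or -0.21 and -0.31. The 2 with the largest differences were GINS4, of the helicase-activating GINS complex, at 0.32 (SE 0.17), and ORC2, of the origin recognition complex, at 0.28 (SE 0.18). GINS4 read 7.83, 8.45 and 8.43 in DAXX OE and 8.55, 8.48 and 8.63 in DSM OE, and was at 0.11 and 0.18 in the other settings. ORC2 read 7.14, 7.83 and 7.81 against 7.86, 7.84 and 7.93, and was at 0.06 and 0.17. DAXX OE replicate 1 was far below the other 5 arrays in both.

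Among 55 other mitotic genes 0 passed with 6 arrays, with a median of 0.14 and 49 positive, and the median was 0.01 without DAXX OE replicate 1 (33 positive) and 0.03 after cyclic loess (36 positive). The groups were apart with DSM OE higher for 11, 11 and 10 of them in the 3 settings, and lower for 1, 6 and 4, which is 20.0%, 20.0% and 18.2% against 13.7%, 18.1% and 13.0% of all genes, and 1.82%, 10.9% and 7.27% against 5.5%, 13.5% and 10.1%. With 6 arrays the shares over genes above the median level, where all 55 lie, were 21.7% higher and 2.23% lower. A count of genes with groups apart cannot fall when an array is left out. CDC25B, another CDK-activating phosphatase, read 8.07, 8.37 and 8.48 in DAXX OE and 8.60, 8.58 and 8.58 in DSM OE, a difference of 0.28 (SE 0.12, limma adjusted p = 0.682), or 0.16 and 0.15. KIFC1, a minus-end kinesin, read 8.40, 8.80 and 8.87 against 8.94, 8.92 and 8.96, a difference of 0.25 (SE 0.13), or 0.11 and 0.13. Over the mean of its 4 clusters the KIFC1 difference was 0.19 with 6 arrays. In CDC25B and KIFC1, on the cluster used, the DSM OE arrays were all above the DAXX OE arrays. The promoter letters of these lists were apart in the same direction as those of the members, with E2F letters in 35.9% of 39 other replication promoters and 6.7% of 45 other mitotic promoters, and CHR letters in 7.7% and 84.4%.

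Of 38 genes that control the cycle (cyclin D, CDK inhibitors, pocket proteins, E2F and MuvB subunits, checkpoint kinases) 0 passed with 6 arrays, with a median of 0.08. Their medians were -0.02 in each of the other settings. The groups were apart with DSM OE higher for 4, 4 and 3 of them in the 3 settings, and lower for 0, 11 and 8. The shares of all genes were 13.7%, 18.1% and 13.0% higher, and 5.5%, 13.5% and 10.1% lower. E2F4, the repressor E2F of the DREAM complex, read 9.21, 9.52 and 9.49 in DAXX OE and 9.22, 9.24 and 9.28 in DSM OE, a difference of -0.16 (SE 0.11, limma adjusted p = 0.682). Without DAXX OE replicate 1 it passed the threshold, at -0.26 (SE 0.04, limma adjusted p = 0.0483). It was the only gene of the 38 to pass there, where 1.25% of all genes passed. After cyclic loess it was at -0.27 (limma adjusted p = 0.128). Its adjusted p ran from 0.0483 to 0.911 over the settings with equal array weights. WEE1, the kinase that holds CDK1 inactive, read 7.71, 8.15 and 8.21 against 8.34, 8.30 and 8.37, a difference of 0.31 (SE 0.14, limma adjusted p = 0.682) that was 0.15 and 0.18. The WEE1 groups were apart with 6 arrays, and so by construction without DAXX OE replicate 1, and also after cyclic loess. E2F3 read 7.44, 8.13 and 8.09 against 8.17, 8.12 and 8.26, a difference of 0.29 (SE 0.18), or 0.07 and 0.17, and its groups overlapped.

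The inhibitors and pocket protein of G1 overlapped between the groups with 6 arrays. CDKN1A, which encodes p21, read 8.21, 7.98 and 7.96 in DAXX OE and 7.97, 7.95 and 7.94 in DSM OE, a difference of -0.10 (SE 0.09), or -0.02 and -0.22. DAXX OE replicate 1 was the highest array for CDKN1A, and at 8.50 still was after cyclic loess. CDKN1B, which encodes p27, read 8.0, 8.39 and 8.43 against 8.46, 8.39 and 8.44, a difference of 0.16 (SE 0.13), or 0.02 and 0.03. RB1, the retinoblastoma protein gene, read 9.47, 9.80 and 9.62 against 9.54, 9.47 and 9.63, a difference of -0.08 (SE 0.11), or -0.17 and -0.19, while without DAXX OE replicate 2 it was -0.00078. CCND1, which encodes cyclin D1, read 11.33, 11.44 and 11.41 against 11.33, 11.36 and 11.38, a difference of -0.04 (SE 0.08), or -0.07 and -0.06. The size of each of these 4 differences thus depended on single arrays. CDKN2A read 6.20, 5.93 and 5.93 against 5.93, 5.96 and 5.87, a difference of -0.11 (SE 0.10), or -0.02 and -0.03. All 6 CDKN2A signals lay below the median of 6.73 over genes, within the range of the low luminal markers. Dim genes read high on DAXX OE replicate 1, and whether the CDKN2A signal exceeds background was not tested.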

How the data were processed

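Total RNA from 6 cultures, 3 per group, was hybridised to GeneChip HTA 2.0 arrays (Affymetrix), which carry 1 dye and report transcript clusters. The authors deposited log2 signals obtained by robust multi-array averaging (RMA); Affymetrix Expression Console 1.3 is named in the submitters' processing notes. ComBat batch correction was described by the study for some arrays, and whether these 6 were among them is not given in the sources used. No batch is labelled, and the labels name different culture vessels.

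Of 70523 rows, 67528 were transcript clusters, and 23781 probes carried 1 gene symbol. Where a gene had several clusters, the one brightest on average was kept, without a filter on dim signals, giving 22465 genes; 40 of 40 members were found, each with 1 cluster. Of the wider lists, 6 genes had no such cluster and were left out. Precision is limited by the number of arrays, since RMA signals carry no count. Signals of different genes were not compared as amounts of RNA.

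DSM OE was compared with DAXX OE by 2-sided moderated tests (lmFit, eBayes) of limma 3.58.1 under R 4.3.3 (4 residual degrees of freedom before moderation). Benjamini-Hochberg adjustment ran over all genes, with a threshold of 0.05. The fit was first tested on simulated data with equal noise for all genes, no compressed array and changes larger than those of the members. That simulation therefore does not bear on the level-dependent shift of DAXX OE replicate 1. P-values measure only the spread between these cultures. List medians and counts carry no test. The members, lists, and settings were chosen with earlier results of these data known. Named with values on every array were DAXX, the 4 members of each set with the largest and the 2 with the smallest absolute difference, and 10 common cycle genes; from the wider lists, genes past the threshold in a fit, the 2 largest differences of each list and 5 G1 regulators. The labels do not say that a replicate number pairs cultures, so the numbers were not used as pairs. Same-numbered arrays correlated at -0.05, -0.30 and 0.17 in their deviations from the group means. The DAXX OE mean includes the compressed replicate 1, so these correlations cannot settle whether arrays pair. Alternatives were the replicate block, each array left out, cyclic loess, quantile normalization, median centring, a filter on dim genes, the mean of a gene's clusters, trended and robust moderation, array weights, and a fold beyond 1.3 with an unadjusted p under 0.05.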

Additional observations from a re-analysis of the deposited data

How the results depend on the processing

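Over all alternatives with equal array weights, 0 of 40 members passed the threshold, and the S phase median lay below the mitotic median in each. The count of all genes past the threshold, 14 as reported, was 25 after cyclic loess, 5 of the genes above the median level, 505 with a fold beyond 1.3 and an unadjusted p under 0.05, and 1 to 280 with 1 array left out, the highest without DAXX OE replicate 1. The replicate block gave 40 genes and changed no call among the members; the labels do not say that a number marks a shared culture. Of the 53 genes followed, DAXX and E2F4 passed the threshold without DAXX OE replicate 1 and 0 passed in the other fits with equal weights. With 1 array left out, the S phase median ran from -0.10 to 0.0096, the mitotic median from 0.03 to 0.20, and their difference from -0.20 to -0.13. The S phase median was -0.13 after cyclic loess and -0.12 after quantile normalization.

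The fit with array weights rested on extreme weights. DAXX OE replicate 2 received a weight of 90.7, against 0.0278 to 2.04 for the others. That fit called 9677 genes and 25 members, with a mitotic median of 0.018 and a difference of -0.099 between the medians, and its calls rest largely on that 1 array.

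Signs turned for 10 of the 53 genes followed. After cyclic loess these were CDC45 (-0.12), CDK1 (-0.083), CENPE (-0.053), CENPF (-0.0091), EZH2 (-0.082), KIF11 (-0.071) and PCNA (-0.050). After quantile normalization they were CDC45 (-0.12), CDK1 (-0.079), CENPE (-0.033), EZH2 (-0.079), KIF11 (-0.054) and PCNA (-0.036). With array weights they were BUB1 (-0.031), CDC45 (-0.079), CDK1 (-0.14), CENPE (-0.20), CENPF (-0.053), EZH2 (-0.083), KIF11 (-0.17), PCNA (-0.017), TOP2A (-0.063) and TTK (-0.014). The normalizations act on level-dependent shifts by construction, and any other cause was not tested.

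With 1 array left out, 15 genes changed sign. The ranges were -0.19 to 0.026 for CCNE2, -0.10 to 0.073 for CDC45, -0.063 to 0.13 for CDK1, -0.062 to 0.17 for CENPE, -0.037 to 0.14 for CENPF, -0.063 to 0.0065 for E2F2, -0.079 to 0.11 for EZH2 and -0.066 to 0.11 for KIF11. They were -0.075 to 0.039 for KIF23, -0.091 to 0.039 for MCM4, -0.10 to 0.042 for MCM5, -0.15 to 0.068 for MCM6, -0.023 to 0.11 for PCNA, -0.067 to 0.0028 for RRM2 and -0.11 to 0.024 for UHRF1.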
